A study of Mus musculus with 6 samples.

Results

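Milk-facing mammary epithelial cells release a set of proteins from their apical surface and carry others on it, and 9 genes of that kind were followed here in sorted tumor cells: Mfge8, Clu, Wfdc18, Wfdc2, Slpi, Lcn2, Ltf, Pigr and Muc1. Mfge8 and Wfdc18 were chosen by their high counts in these same libraries, and the other genes for their known roles, so levels are given as a description with no test. All 9 members were found among the 47643 Ensembl identifiers of the files, and all 9 were among the 12088 genes that passed the filter on low counts. The libraries came from 6 breast tumors of mice of the MMTV-PyMT model, the strain FVB/N-Tg (MMTV-PyVT)634Mul/J, in which the mouse mammary tumor virus promoter drives the polyoma middle T antigen in mammary epithelium. All of the mice were given B20-4.1.1, an antibody that blocks mouse VEGF-A, at 5 mg/kg, 2 times per week for 6 weeks from 7 weeks of age. CD45-EPCAM+ tumor cells were sorted by flow cytometry, and their polyadenylated RNA was read from the 3′ end. The study's methods describe the sorted tumor cells as also negative for CD31 and PDGFRα. Every tumor had the same treatment, control tumors were not analysed here, and the labels do not say which tumors belonged to the high-hypoxia and low-hypoxia classes of the study, so no group comparison was made.

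The mammary secretory cell sheds fat globules wrapped in its own apical membrane and adds antimicrobial proteins to milk, a program that luminal tumor cells can keep in part. Mfge8 (lactadherin) coats milk fat globules and bridges phosphatidylserine on dying cells to integrins of phagocytes, and Clu (clusterin) is a secreted chaperone. Wfdc18, Wfdc2 and Slpi carry the whey acidic protein (WAP) disulfide core, a small cysteine-rich fold, and Slpi inhibits serine proteases such as neutrophil elastase. Lcn2 (lipocalin 2) binds the iron carriers of bacteria and Ltf (lactoferrin) binds iron itself. Pigr carries polymeric IgA across the epithelium to its apical side, and Muc1 is a heavily glycosylated mucin of the apical membrane.

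In GENCODE M21 on GRCm38, the span of Mfge8 (ENSMUSG00000030605) is chr7:79133768-79149060 on the minus strand and that of Clu (ENSMUSG00000022037) is chr14:65968483-65981547 on the plus strand. Of the WAP-domain genes, Wfdc18 (ENSMUSG00000000983) spans chr11:83709015-83711348 and Wfdc2 (ENSMUSG00000017723) chr2:164562413-164568510, both on the plus strand, and Slpi (ENSMUSG00000017002) spans chr2:164354070-164389095 on the minus strand. Lcn2 (ENSMUSG00000026822) spans chr2:32384633-32388252 on the minus strand, and Ltf (ENSMUSG00000032496) chr9:111019271-111042767, Pigr (ENSMUSG00000026417) chr1:130826684-130852249 and Muc1 (ENSMUSG00000042784) chr3:89229057-89233381 on the plus strand. All are protein-coding, and the only annotated gene overlapping any of them was the microRNA Mir7678 inside Slpi, with at most 1 count in a library.

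Promoter sequence of the start site was read for 8 of the 9 members from RefSeq on GRCm38.p6, as 250 bases before and 50 bases after the start. The table had no entry for Clu. The reference strain is not the FVB/N strain of the mice. Short sequences were searched on both strands in 27025 promoters of that length. They were ACGTG (the core of the hypoxia response element, in 19.7% of promoters), TTCNNNGAA (the pair of STAT half-sites, in 8.47%), TATAAA (in 14.2%) and CCAAT (in 37.9%). The promoters of 4 members are printed, with the matches in capitals: Wfdc18 and Muc1, the members whose levels followed each other most closely, and Slpi and Pigr, the only ones of the 8 with ACGTG in the window. Wfdc18 lies at chr11:83708754-83709053 on the plus strand, Muc1 at chr3:89228806-89229105 on the plus strand, Slpi at chr2:164356458-164356757 on the minus strand and Pigr at chr1:130826434-130826733 on the plus strand.
Wfdc18: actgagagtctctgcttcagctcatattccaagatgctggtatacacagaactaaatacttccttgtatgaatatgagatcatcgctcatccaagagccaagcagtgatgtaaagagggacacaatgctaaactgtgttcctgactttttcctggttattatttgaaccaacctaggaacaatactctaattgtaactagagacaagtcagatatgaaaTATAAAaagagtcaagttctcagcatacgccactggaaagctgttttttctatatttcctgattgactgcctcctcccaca
Muc1: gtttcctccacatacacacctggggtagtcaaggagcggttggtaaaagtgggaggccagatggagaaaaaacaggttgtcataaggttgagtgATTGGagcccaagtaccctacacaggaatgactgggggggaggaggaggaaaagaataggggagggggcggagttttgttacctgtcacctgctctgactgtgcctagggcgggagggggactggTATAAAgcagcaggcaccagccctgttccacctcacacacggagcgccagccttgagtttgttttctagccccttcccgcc
Slpi: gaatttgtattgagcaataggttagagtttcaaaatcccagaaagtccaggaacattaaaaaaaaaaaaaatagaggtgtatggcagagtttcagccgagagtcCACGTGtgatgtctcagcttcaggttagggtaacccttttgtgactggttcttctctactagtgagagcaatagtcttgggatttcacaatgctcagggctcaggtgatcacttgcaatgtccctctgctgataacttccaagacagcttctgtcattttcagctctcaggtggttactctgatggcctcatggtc
Pigr: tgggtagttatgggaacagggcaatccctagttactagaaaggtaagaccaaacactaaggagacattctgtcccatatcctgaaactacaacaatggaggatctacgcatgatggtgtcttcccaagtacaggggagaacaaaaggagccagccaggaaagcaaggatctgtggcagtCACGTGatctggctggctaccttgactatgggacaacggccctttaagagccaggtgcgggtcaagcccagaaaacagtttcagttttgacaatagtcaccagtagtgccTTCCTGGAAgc
Wfdc18 and Muc1 each held TATAAA with its first base at -31 from the start. In Slpi and Pigr the capitals spell CACGTG, which reads as ACGTG on both strands and so gives adjoining matches, at -146 and -145 in Slpi and at -71 and -70 in Pigr. Pigr also held TTCNNNGAA at 40 after the start, and CCAAT was held on the opposite strand by Muc1 at -156 and by Ltf at -76. Mfge8, Wfdc2 and Lcn2 held none of the 4 sequences. The start used for Slpi lies 32588 bases inside its GENCODE gene span, counted from the 5′ end, so the window belongs to 1 of its annotated starts. These matches describe letters in a window, and binding was not measured.

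The libraries held 2509482 to 5893246 counts on genes, and lines that named no gene took 16.1% to 41.4% of all counts. Tumor 1 stood apart from the rest, with a median correlation of 0.788 with the other libraries over 8873 genes on the log2(CPM + 1) scale, against 0.905 to 0.939 for the other 5. Results that turn on tumor 1 are therefore also given without it. The sort was checked against defining markers. The 7 luminal markers summed to between 3957 and 4874 CPM, the count scaled to a common library total, in the 6 libraries, with Epcam, the sorted antigen, at 611 to 972 CPM. Ptprc, which encodes CD45, was at 0.797 to 3.39 CPM. Pecam1 of endothelium, which encodes CD31, was at 1.20 to 2.04 CPM. The 6 fibroblast markers, Pdgfra among them, summed to 15.1 to 25.9 CPM. The sort itself selected against CD45, CD31 and PDGFRα. For macrophage markers the sum was 17.0 to 53.9 CPM in 5 tumors. Tumor 3 differed, with a sum of 238 CPM, of which Lyz2 made 148 CPM. In tumor 3 the erythroid markers also summed to 864 CPM. Tumor 3 did not hold the highest value of any of the 9 genes. The labels number the samples but do not say that the tumors came from separate mice, so p-values measure the spread between these 6 samples.

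Per unit of gene length, Wfdc18 was the member with the highest level, and Muc1 the one with the lowest. Levels between genes are given in TPM, where counts are divided by exon length before scaling. Because 3′ libraries read transcripts near 1 end, this division can misplace long genes, and the order depends on it. Without it, Wfdc18 (4352 to 9593 CPM) and Mfge8 (3561 to 14609 CPM) overlapped, with 1.52 and 1.05 Mfge8 counts per Wfdc18 count in tumors 1 and 6. The lowest median in CPM was that of Wfdc2 (30.5 CPM), below Muc1 (35.3 CPM). Wfdc18 had a median of 10858 TPM over 6 tumors (range 8933 to 20151), above Mfge8 with 2103 TPM (1957 to 7976), and these ranges did not overlap. Lcn2 followed with 1492 TPM (1236 to 2173), and its range overlapped that of Mfge8. Ltf had 759 TPM (515 to 955) and Clu 505 TPM (430 to 1146), and these overlapped each other, but Ltf did not overlap Lcn2. Below Clu, and without overlapping it, Slpi had 192 TPM (106 to 353), Pigr 79.0 TPM (41.9 to 112), Wfdc2 66.7 TPM (42.3 to 321) and Muc1 39.0 TPM (23.7 to 75.4), and each of these overlapped the next. The 9 genes together took 1.12% to 1.62% of the counts on genes in 5 tumors and 2.96% in tumor 1, where Mfge8 and Wfdc18 alone took 2.42%. By count, Mfge8 was between the 3rd and the 16th gene of each library and Wfdc18 between the 4th and the 13th.

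**Figure D1:**
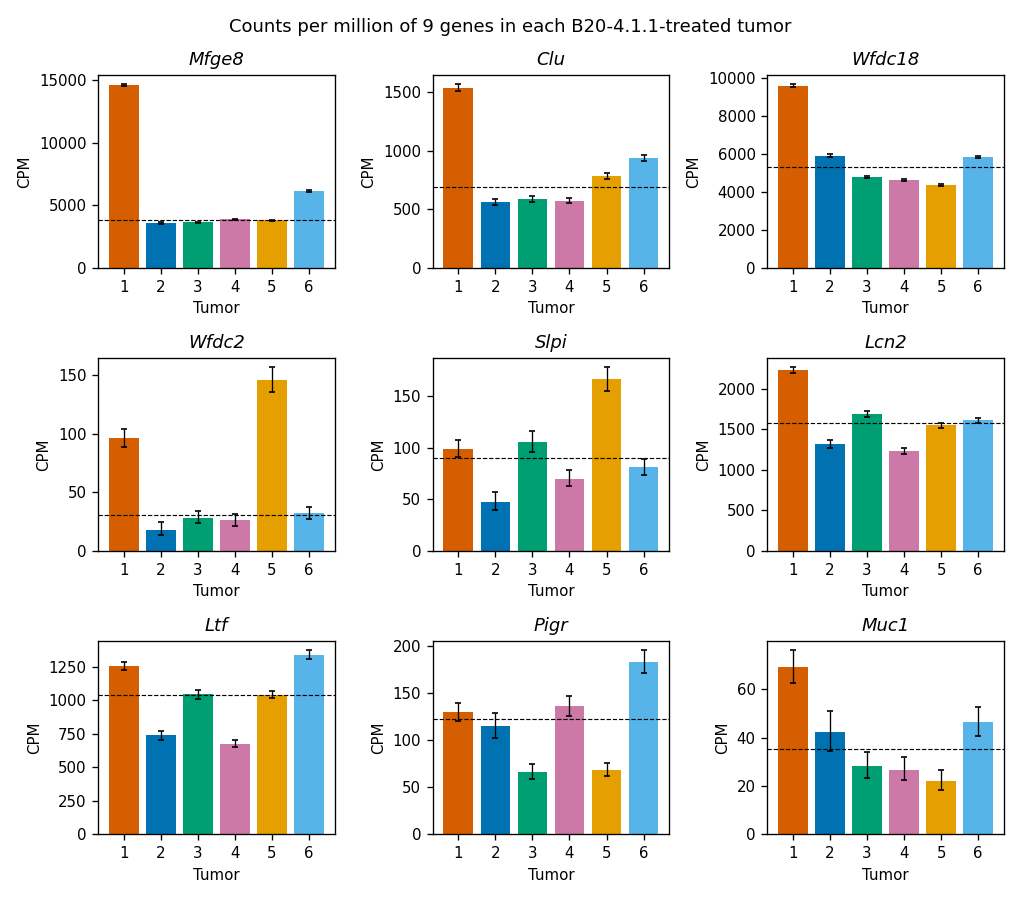
Bars give CPM (linear axis from 0, a scale of its own for each gene) in the 6 B20-4.1.1-treated tumors, error bars the exact 95% Poisson interval of the count (counting error only) and the dashed line the median. Tumor 1 is the highest bar for Mfge8 (14609 CPM), Clu, Wfdc18, Lcn2 and Muc1, tumor 5 for Wfdc2 and Slpi, and tumor 6 for Ltf and Pigr.

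The fat-globule protein Mfge8 stood out in 1 tumor. Mfge8 was at 14609 CPM in tumor 1, 3561 CPM in tumor 2, 3634 CPM in tumor 3, 3876 CPM in tumor 4, 3808 CPM in tumor 5 and 6128 CPM in tumor 6. Tumor 1 was far above the rest, tumor 6 was next, and the remaining 4 tumors lay close together. For ratios between tumors, counts were first put on edgeR's TMM scale, which corrects totals for a few very abundant genes, and the highest tumor was then 4.14 times the lowest, or 1.96 times without tumor 1. Relative to Epcam within each library, Mfge8 gave 22.4 counts per Epcam count in tumor 1 and 4.49 to 6.31 in the others. Clu had a lower spread of the same shape, at 1537 CPM in tumor 1, 561 CPM in tumor 2, 589 CPM in tumor 3, 572 CPM in tumor 4, 786 CPM in tumor 5 and 940 CPM in tumor 6. Its highest tumor was 2.69 times the lowest, or 1.86 times without tumor 1. Of the integrins that bind Mfge8, Itgav was at 42.3 to 94.2 CPM and Itgb5 at 7.57 to 34.9 CPM, and of the lipoprotein receptors that take up clusterin, Vldlr was at 34.3 to 114 CPM.

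The 3 WAP-domain genes did not vary in step. Wfdc18 was at 9593 CPM in tumor 1, 5901 CPM in tumor 2, 4780 CPM in tumor 3, 4619 CPM in tumor 4, 4352 CPM in tumor 5 and 5823 CPM in tumor 6. Tumor 1 was again the highest, but tumor 5 was the lowest, and the ratio of highest to lowest was 2.19. Wfdc2 was at 96.2 CPM in tumor 1, 18.3 CPM in tumor 2, 28.6 CPM in tumor 3, 26.2 CPM in tumor 4, 146 CPM in tumor 5 and 32.4 CPM in tumor 6. Tumors 5 and 1 therefore formed a high pair, and the lowest value rested on 46 counts (exact 95% Poisson interval 13.4 to 24.5 CPM). The ratio of 7.52 was the largest among the members and was matched or passed by 8.89% of the genes tested, and without tumor 5 it was 4.92. Slpi was at 98.9 CPM in tumor 1, 47.4 CPM in tumor 2, 106 CPM in tumor 3, 70.0 CPM in tumor 4, 166 CPM in tumor 5 and 81.0 CPM in tumor 6. Tumor 5 was again the highest, and the ratio was 3.31, or 2.03 without tumor 5. Slpi and Wfdc2 both lie on chromosome 2, with 173 kb between their gene spans. The ratio of Slpi to Wfdc2 counts was 1.03 in tumor 1 and 1.14 in tumor 5, against 2.5 to 3.69 in the remaining tumors.

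Krt14, a keratin of basal mammary cells, was highest in the same tumors as Wfdc2, while other basal markers were not, and their part in its pattern was not tested. The 8 basal markers summed to 536 CPM in tumor 5 and 354 CPM in tumor 1, and lay between 172 and 270 CPM elsewhere. Krt14 was the most abundant, at 359 CPM in tumor 5 and 241 CPM in tumor 1, against 88.8 to 193 CPM elsewhere. Krt17, another basal keratin, named after its values were seen, was at 127 CPM in tumor 5, 36.7 CPM in tumor 1 and between 14.7 and 40.8 CPM elsewhere, so tumor 1 was below tumor 4. Krt5 was lowest in tumor 1, at 4.24 CPM, and highest in tumor 4, at 17.4 CPM, with 10.2 CPM in tumor 5. The contractile markers of myoepithelium were near 0, with Acta2 at no more than 1.21 CPM and Myh11 at no more than 0.399 CPM, and Trp63, a basal transcription factor, was lowest in tumors 1 and 5, at 3.39 and 4.59 CPM, and highest in tumor 4, at 16.0 CPM. In bulk samples, more cells of a type and more RNA per cell cannot be told apart.

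Of the other WAP-domain genes listed, 16 of 17 were found in the files, 4 were tested and 8 had no count in any library. Wap, the whey acidic protein of rodent milk, ranged from 59.3 CPM in tumor 5 to 318 CPM in tumor 1, so it was lowest where Wfdc2 and Slpi were highest. Wfdc3 was at 38.1 to 129 CPM and Wfdc12 at 4.78 to 17.8 CPM. Like Wfdc2, Wfdc3 had its highest values in tumors 5 and 1, at 129 and 110 CPM. Of 5 proteases listed with Slpi, 3 had no count in any tumor, among them Elane and Ctsg, whereas Prtn3 was at 5.98 to 14.1 CPM. The list does not establish that Slpi inhibits each of them, and inhibition was not measured.

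Of the iron-handling pair, Lcn2 was the steadiest of the 9 members. Lcn2 was at 2224 CPM in tumor 1, 1319 CPM in tumor 2, 1685 CPM in tumor 3, 1232 CPM in tumor 4, 1545 CPM in tumor 5 and 1607 CPM in tumor 6. Ltf was at 1255 CPM in tumor 1, 738 CPM in tumor 2, 1042 CPM in tumor 3, 676 CPM in tumor 4, 1041 CPM in tumor 5 and 1338 CPM in tumor 6. Both genes were lowest in tumors 4 and 2, and the ratio of Lcn2 to Ltf counts stayed between 1.20 and 1.82. The highest tumor was 1.79 times the lowest for Lcn2, a ratio that 79.7% of the genes tested matched or passed, and 2.22 times for Ltf. Lcn2 and Ltf are also stored in neutrophil granules, so neutrophil markers were examined as a list of 11. The list summed to 75.6 to 233 CPM, of which S100a8 made 73.8 to 230 CPM. Without S100a8 the other 10 summed to 0.398 to 5.82 CPM, S100a9, the partner of S100a8, was at 0 to 3.39 CPM, and Mpo, Elane and Csf3r had no count in any library. S100a8 was highest in tumor 4, at 230 CPM, where Lcn2 and Ltf were lowest. It was next highest in tumor 1, at 175 CPM, where Lcn2 was highest. A part of neutrophils in the Lcn2 and Ltf counts was not tested. The receptor Slc22a17, which takes up Lcn2, was at 114 to 351 CPM, with the lowest value in tumor 6.

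Some other genes of secreted defense proteins were abundant in the same libraries, and others were near 0. Of 18 listed genes, 12 were tested. Those not tested had no more than 1.87 CPM in any library, and Saa3, which was tested, was at 2.54 to 23.6 CPM. Chil1, a secreted chitinase-like protein, was at 1319 to 3607 CPM, Cp, the copper carrier ceruloplasmin, at 537 to 2016 CPM, and Saa1, an acute-phase protein, at 616 to 2077 CPM. Saa1 shares 9.56% of the 50-base windows near its 3′ end with another gene, so its value is uncertain, whereas each of the 9 members shared 0 of 251 such windows. Cxcl1, a neutrophil-attracting chemokine, was at 145 CPM in tumor 5, against 17.5 to 51.5 CPM elsewhere. Of 11 listed factors and inducers that act on such genes, the transcription factor Stat3 was at 597 to 1081 CPM, the transcription factor Cebpb at 282 to 477 CPM and Nfkbia, an inhibitor and target of NF-κB, at 919 to 1667 CPM.

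Pigr and Muc1 were low and differed from each other in their order of tumors. Pigr was at 130 CPM in tumor 1, 115 CPM in tumor 2, 66.7 CPM in tumor 3, 137 CPM in tumor 4, 68.7 CPM in tumor 5 and 184 CPM in tumor 6. Tumors 3 and 5 formed a low pair, and the ratio of highest to lowest was 3.20, or 2.13 without tumor 6. Plasma cell markers, which would mark the cells whose IgA Pigr carries, summed to 0.998 to 20.6 CPM, with Igkc the most abundant at 0 to 6.79 CPM. Muc1 was at 69.1 CPM in tumor 1, 42.2 CPM in tumor 2, 28.4 CPM in tumor 3, 26.8 CPM in tumor 4, 22.2 CPM in tumor 5 and 46.5 CPM in tumor 6. Tumor 1 was the highest, tumors 6 and 2 followed, and tumors 3, 4 and 5 formed a low group, with a ratio of 3.09. Of 14 other apical genes, Ezr, which links apical membrane to actin, was steady at 409 to 698 CPM, whereas the mucin Muc15 ran from 20.9 CPM in tumor 1 to 199 CPM in tumor 6, so that the tumor with the most Muc1 had the least Muc15. Folr1, an apical folate receptor, was highest in tumor 1 at 205 CPM and lowest in tumor 5 at 37.1 CPM, the order of extremes seen for Muc1.

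The median spread of the members between tumors was above that of all genes tested, with and without tumor 1. The ratio of highest to lowest tumor had a median of 3.09 over the 9 members and 2.46 over the genes tested. It was at least 2 for 8 of the 9 members, Lcn2 being the exception, against 68.9% of the genes tested. Without tumor 1 it was at least 2 for 5 members (Wfdc2, Slpi, Pigr, Muc1 and Ltf), against 43.4% of the genes tested, with medians of 2.22 and 1.89. The highest TMM-scaled value was in tumor 1 for 5 of the 9 members, against 32.5% of the genes tested. The count was also 5 with unscaled CPM, with size factors and without the 10 most abundant genes. Mfge8 and Wfdc18, chosen by their high counts in these libraries, are among these 5, so the count is a description. The biological coefficient of variation, the spread beyond counting error, ran from 0.203 for Lcn2 to 0.784 for Wfdc2, with a median of 0.409 over members and 0.305 over all genes tested.

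**Figure D2:**
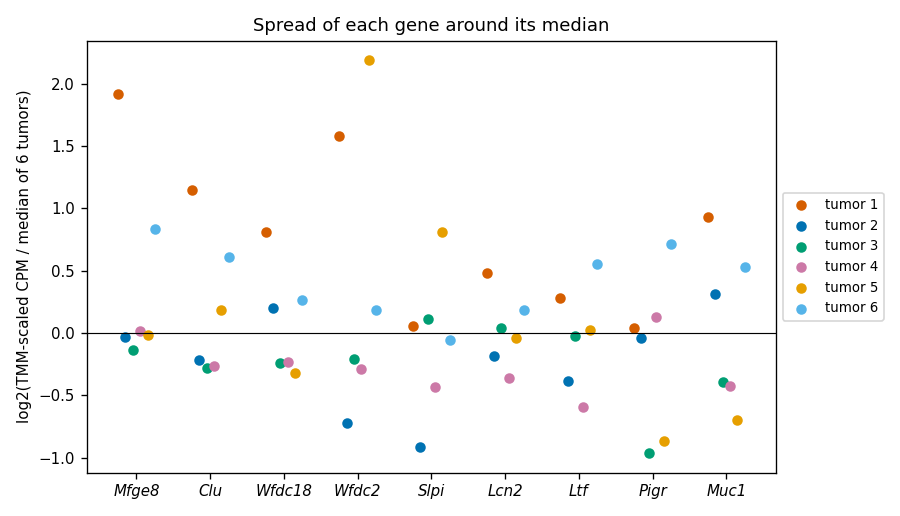
Each point is 1 tumor, on the y axis as log2 of the TMM-scaled CPM over the gene's median of the 6 tumors, for the 9 genes on the x axis. Lcn2 stays closest to its median, tumor 1 is set apart for Mfge8, and tumors 5 and 1 are set apart for Wfdc2.

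Wfdc18 with Muc1, Mfge8 with Clu, Lcn2 with Ltf and Slpi with Wfdc2 had similar patterns over the 6 tumors, and none of these relations passed adjustment over all genes. Among the 36 pairs of members, the median Pearson r of log2(TMM-scaled CPM + 1) was 0.51, 31 were above 0 and 3 were at least 0.9. The exact permutation test over 720 orders of the tumors cannot give a p under 0.00139, and in this family each member was set against 12087 other genes. Wfdc18 and Muc1 gave r = 0.973 (exact permutation p = 0.00278, adjusted p = 0.306) and Spearman's rho = 0.943 (exact permutation p = 0.0167). With the 2 tumors of most extreme Wfdc18 left out it was 0.996, and it was 0.993 without tumor 1. Mfge8 and Clu gave r = 0.951 (exact permutation p = 0.0125, adjusted p = 0.305) and rho = 0.829 (exact permutation p = 0.0583), but r was 0.318 once the 2 tumors of most extreme Mfge8 were left out, so the relation rests on those tumors, and r was 0.882 without tumor 1 alone. Mfge8 and Wfdc18 gave r = 0.907 (exact permutation p = 0.0208, adjusted p = 0.305) and rho = 0.714 (exact permutation p = 0.136), with r = 0.672 without tumor 1 and, once 2 tumors were left out, 0.0715 for those of most extreme Mfge8 and 0.673 for those of most extreme Wfdc18. Lcn2 and Ltf gave r = 0.852 (exact permutation p = 0.0347, adjusted p = 0.311) and rho = 0.886 (exact permutation p = 0.0333), with r = 0.962 once the 2 tumors of most extreme Lcn2 were left out. Slpi and Wfdc2 gave r = 0.838 (exact permutation p = 0.0222, adjusted p = 0.855) and rho = 0.829 (exact permutation p = 0.0583), with r = 0.899 without tumor 1 and, once 2 tumors were left out, 0.439 for those of most extreme Slpi and 0.817 for those of most extreme Wfdc2. Slpi and Pigr had r = -0.51 (exact permutation p = 0.292, adjusted p = 0.913) and rho = -0.54 (exact permutation p = 0.297).

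**Figure D3:**
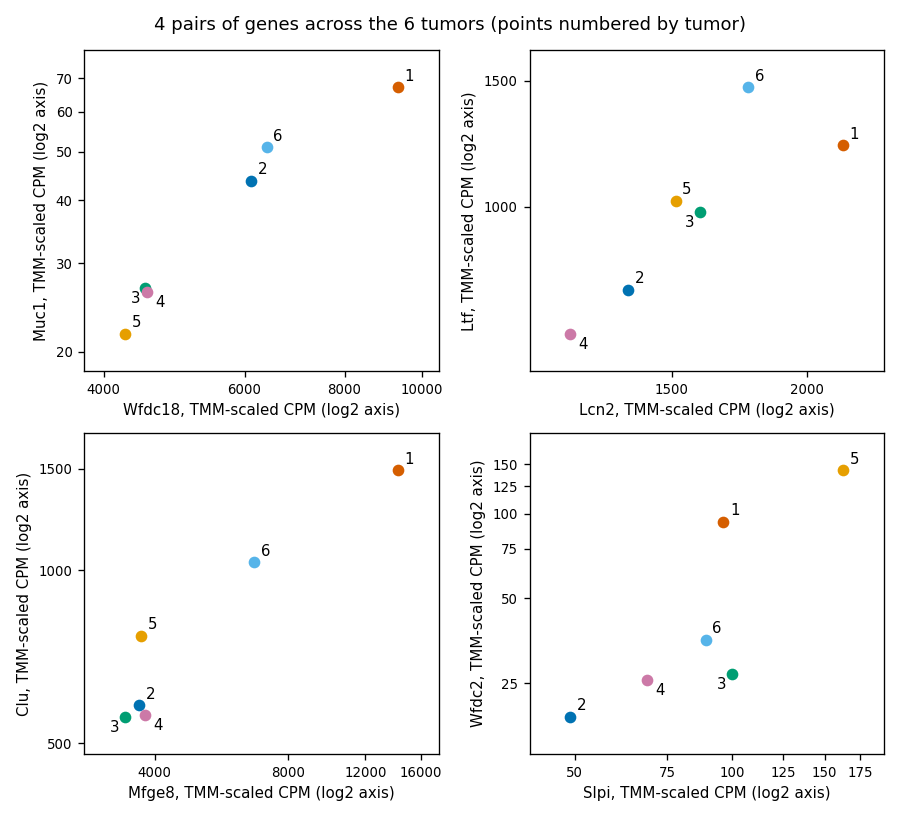
TMM-scaled CPM (log2 axes) of 4 pairs of genes, each point a tumor numbered 1 to 6. Wfdc18 and Muc1 lie close to a line with r = 0.973, while for Mfge8 and Clu tumors 1 and 6 lie far from the other 4.

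The genes most like each member were taken as the 2 with the highest r among genes averaging 50 CPM or more. For Muc1 these were Tkt, a transketolase of the pentose phosphate pathway (r = 0.996), and Adgrg1, an adhesion receptor (r = 0.987). For Wfdc18 they were Nelfcd and Smdt1 (r = 0.997 and 0.992), for Mfge8 Smim7 and Park7 (0.996 and 0.994), and for Clu Dpm3 was one of them (0.991). For Lcn2 one was Dhrs3, a retinal reductase (0.990). They were for Ltf Ufc1 and Zfas1 (0.985 and 0.980), for Wfdc2 Ddx1 and Heg1 (0.977 and 0.960), for Slpi G3bp1 and Pdcd6 (0.976 and 0.968) and for Pigr Cand1 and Camsap2 (0.950 and 0.941). Once the 2 tumors of most extreme member level were left out, r was -0.995 for Mfge8 with Park7 and 0.324 for Wfdc2 with Heg1. The likeness of these pairs rests on those tumors, and rho of Mfge8 with Park7 was 0.429 (exact permutation p = 0.419). In the remaining pairs r was then 0.645 (Pigr with Camsap2) to 0.997 (Wfdc18 with Nelfcd). Genes with r of at least 0.9 numbered 624 for Mfge8, 373 for Wfdc18, 367 for Clu and 12 for Pigr. Without tumor 1 they numbered 159, 175, 232 and 120 in the same order. The lowest adjusted p of any such relation was 0.269, so likeness with 6 tumors is a description.

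The study asked how the hypoxia that follows VEGF-A blockade divides tumors, and its 3-gene score, the mean TPM of Vegfa, Slc2a1 and Car9, was computed for each library. Vegfa is the target of the antibody, Slc2a1 takes up glucose and Car9 handles acid, and all are induced by hypoxia. In TPM, tumor 1 scored 48.5, tumor 2 scored 37.2, tumor 3 scored 51.4, tumor 4 scored 76.6, tumor 5 scored 94.4 and tumor 6 scored 47.3, so tumors 5 and 4 were the highest. No member changed with the score by edgeR's quasi-likelihood test with Benjamini-Hochberg adjustment over all genes tested, where the adjusted p of the 9 members lay between 0.954 and 0.966. At an adjusted p under 0.05 edgeR called 0 of 12088 genes (0%), and DESeq2 called 15, none of them a member. At an unadjusted p under 0.05 edgeR listed 512 genes (4.24%), among them 1 of the 9 members, Muc1. In simulated counts with 200 of the 12088 genes given a slope of 2, the test recovered 36.5% of them, so slopes of the size seen here could go undetected.

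Muc1 had a slope of -1.02 per doubling of the score on the log2 scale (SE 0.43, adjusted p = 0.954 by edgeR), with its 3 lowest values in the tumors with the 3 highest scores, 5, 4 and 3. Its Pearson r was -0.74 (exact permutation p = 0.113, adjusted p = 0.968) and its rho -0.77 (exact permutation p = 0.103), and r was -0.16 once the 2 tumors of most extreme score were left out, so this relation rests on those tumors. Wfdc2 had a slope of 1.35 (SE 0.66, adjusted p = 0.954) and Slpi one of 0.80 (SE 0.39, adjusted p = 0.954). Both had their highest value in tumor 5, the tumor with the highest score, and in tumor 4, with the next score, both had their second lowest value. Without tumor 5 the slope of Wfdc2 was -0.24 and that of Slpi 0.23. Pearson r with the score was 0.661 for Slpi and 0.548 for Wfdc2 (exact permutation p = 0.150 and 0.233, adjusted p = 0.968 for both). Once the 2 tumors of most extreme score were left out, it was 0.992 for Slpi and 0.524 for Wfdc2. Slopes of the remaining members were -0.75 for Mfge8 (SE 0.72), -0.58 for Wfdc18 (SE 0.44), -0.53 for Pigr (SE 0.51), -0.27 for Clu (SE 0.52), -0.20 for Lcn2 (SE 0.39) and -0.20 for Ltf (SE 0.43). In all, 2 slopes were above 0 and 7 below, with a median of -0.27, while 46.8% of the genes tested had a slope above 0 and their median was -0.04. Slpi and Pigr, the members with ACGTG in the promoter window printed above, had slopes of opposite sign, neither of which passed the test.

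Other lists gave no call by edgeR either. Of the 12 secreted defense genes tested, 5 had a slope above 0, 7 below and 0 passed. The 13 apical genes tested split 8 to 5, the 11 factors and inducers 4 to 7, the 8 binding partners 4 to 4 and the 12 secretory regulators, led by Gata3 at 802 to 1330 CPM, 3 to 9, and none of these genes had an adjusted p under 0.05. The 7 milk genes all had slopes below 0 and the 6 basal genes tested all had slopes above 0, with none past the adjusted threshold by edgeR. The median slope was -1.15 for milk genes and 0.56 for basal genes. Some of these slopes were near 0, with -0.11 for Csn3, the most abundant milk gene, and 0.0012 for the smallest basal slope. Krt17, the basal keratin with its highest value in tumor 5, had a slope of 1.97 (SE 0.37, adjusted p = 0.500 by edgeR and 0.0130 by DESeq2). The names of the deposited libraries began with QAF in tumors 1, 4, 5 and 6 and with QSD in tumors 2 and 3, a prefix whose meaning the labels do not give. QSD tumors lay inside the QAF range of CPM for Wfdc18, Lcn2, Ltf and Muc1, and at least 1 of them lay below it for Wfdc2, Slpi, Mfge8, Clu and Pigr, whose lowest CPM was in tumor 2 or 3. The 2 QSD tumors are too few for slopes of their own, and with the prefix as a term the slopes kept their signs, from -1.52 for Muc1 to 0.81 for Wfdc2, with adjusted p of 0.889 and 0.889 by edgeR.

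**Figure D4:**
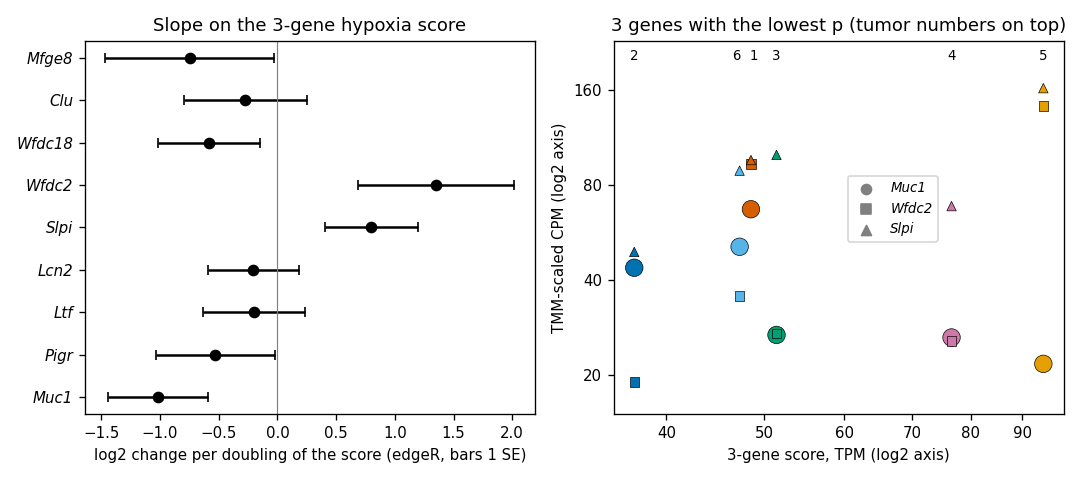
Left, slope of each gene on log2 of the 3-gene score (log2 change per doubling, points, with bars of 1 SE from edgeR, n = 6 tumors). Right, TMM-scaled CPM (log2 axis) against the score in TPM (log2 axis) for Muc1, Wfdc2 and Slpi, where tumor 5 has the highest Wfdc2 and Slpi and the lowest Muc1.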

How the data were processed

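Polyadenylated RNA of CD45-EPCAM+ cells from 6 B20-4.1.1-treated tumors was sequenced with a QuantSeq 3′ kit. The authors trimmed reads with bbduk, aligned them with STAR 2.5 to GRCm38/mm10 and used HTSeq for counting (Bluebee). What they deposited is a raw count for each Ensembl gene. The annotation release, the strand setting and any use of molecular identifiers are not given in the sources used here. Without collapsing, intervals cover counting error only.

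Identifiers were given symbols from GENCODE M21 (47224 of 47643 matched). The 5 summary lines naming no gene were left out of totals. Genes were kept by edgeR's filterByExpr (minimum count 10, total 15, group size 3), scaled by TMM and tested for a slope on log2 of the score with edgeR 4.0.16 (quasi-likelihood, Benjamini-Hochberg adjustment over 12088 genes), with DESeq2 1.42.0 as an alternative. Correlations used log2(TMM-scaled CPM + 1) and two-sided exact permutation tests. The slope and permutation tests were tested on simulated data. Depth was 2509482 to 5893246 counts per library, where 3 counts correspond to 0.509 to 1.20 CPM. The members and lists were chosen with earlier results of these data known. Named genes were the 9 members, the score genes, the most abundant and defining gene of each marker list, the most abundant 3 and most variable 2 of each other list, and the 2 genes most like each member, of which some are not reported here. Some of the genes this rule covers are left out for length. Acta2, Myh11, Trp63, S100a9, Mpo, Elane, Csf3r, Krt5, Krt17, Ctsg and Igha were named outside the rule.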

Additional observations from a re-analysis of the deposited data

Results flagged for a closer look

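In each group of 6 tumors, the gap between the most extreme tumor and its neighbor was divided by the whole range and held against Dixon's 95% critical value for 6 samples. Chance gives about 1 in 20 groups past that value. Of 14 measures (the CPM of the 9 genes and the sums of 5 marker lists), 3 passed it, among them Mfge8 and Wfdc18. These genes were chosen by their high counts in these libraries. Their gaps, and the count of 3 that includes them, are therefore a description and not held against chance. Tumor 1 was the highest for Mfge8 with a gap of 0.768 of the range (14609 CPM against 6128 CPM in the next tumor) and for Wfdc18 with 0.704 (9593 CPM against 5901 CPM). Tumor 3 was the highest for the sum of macrophage markers with 0.833 (238 CPM against 53.9 CPM), while its Mfge8, at 3634 CPM, was the second lowest of the 6.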

How the results depend on the processing

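No paired analysis was possible because all 6 tumors belong to 1 group. The number of genes called for the slope at an adjusted p under 0.05, 0 in the fit reported, was 10 with no filter on low counts, 15 with DESeq2 and 0 to 2 when each tumor was left out in turn (2 without tumor 1). No member was called under any of 13 alternatives, where the lowest adjusted p was 0.280, for Wfdc2. The slopes of 7 members kept their sign in all 13. That of Wfdc2 ranged from -0.24 (without tumor 5) to 1.84 when single tumors were left out, and that of Ltf from -0.52 to 0.049 (above 0 without tumor 4). The median of Lcn2 was 1972 CPM when the 10 most abundant genes were left out of totals, against 1576 CPM. The count of genes with a ratio of at least 2 was 17922 of 21717 with no filter and 5246 (without tumor 1) to 7995 of 12088 when single tumors were left out, against 8331. Without tumor 1, genes with r of at least 0.9 numbered 175 for Wfdc18, 341 for Wfdc2, 558 for Slpi, 220 for Ltf, 159 for Mfge8, 232 for Clu and 120 for Pigr. TMM-scaled levels were an alternative chosen after seeing the data. With 6 tumors of unknown hypoxia class and no control tumors, neither treatment nor class can be tested, and the ratio for Wfdc2 rests on 46 counts in tumor 2.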
